A study of Mus musculus with 225 samples.

Results

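Cells with a cartilage programme in the zeugopod, the part of the mouse limb that becomes the forearm, were compared with the other cells of the same tissue. Members were chosen by measured values, the reads of 5 cartilage genes. A cell was called chondrogenic when at least 3 of *Sox9*, *Col2a1*, *Acan*, *Col9a1* and *Matn1* had 5 or more reads in it. Among the zeugopod cells that the authors retained, 38 met this rule (30.9%, 95% Clopper-Pearson interval 22.9 to 39.9%) and 85 did not. Run NXT0142 gave 19 chondrogenic cells out of 58 (32.8%, interval 21 to 46.3%) and run NXT0143 gave 19 out of 65 (29.2%, interval 18.6 to 41.8%). A further 6 zeugopod cells were not retained, with 219 to 696529 reads on genes, and 0 of them met the rule.

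All cells were taken from forelimbs of mouse embryos at embryonic day 12.5 that were heterozygous for *Hoxd11::GFP*, a knock-in of tau-GFP placed in frame with *Hoxd11* on a mixed C57Bl6CBAF1 background. No treatment separated the groups, and both carry the same allele, so that 1 copy of *Hoxd11* is interrupted by the reporter in every cell. Limbs of several embryos were pooled, the cells with the brightest GFP were sorted and captured on a Fluidigm C1 chip, and polyadenylated RNA was copied with the SMARTer kit, which leaves cells with little *Hoxd11* activity out of view. The series holds 225 cells, of which 96 are from the autopod, the future hand. The labels name no embryo for a cell, so each tissue counts as 1 sample and cells were not treated as replicates. No p-value is given. Reads carry no molecular identifiers, and every interval given here covers counting error only.

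Cartilage of the limb skeleton forms from condensations of mesenchyme in which *Sox9* is active. SOX9, together with its partners SOX5 and SOX6, switches on the genes of the cartilage matrix, a network of collagen fibrils filled with the proteoglycan aggrecan. Mesenchyme outside the condensations gives rise to tendon, to the connective tissue of muscle and to the dermis, and lays down a matrix of fibrillar collagens and small proteoglycans.

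The rule markers are given as a description, since they chose the cells. *Sox9*, which encodes the transcription factor that starts cartilage formation (ENSMUSG00000000567, chromosome 11, 112782224 to 112787760 in GRCm38), had 191 to 21188 reads in chondrogenic cells with a median of 4683.5, and 0 to 12678 reads in other cells with a median of 3. *Col2a1*, the gene of the main cartilage collagen, had a median of 2932.5 reads (range 5 to 15785) in chondrogenic cells and 41 (range 0 to 16878) in other cells. These markers alone did not separate the groups, as 41 of the 85 other cells had 5 or more reads of *Sox9* and 74 had 5 or more of *Col2a1*. *Col9a1*, which encodes a chain of type IX collagen on the surface of cartilage fibrils, had a median of 881.5 reads (range 1 to 12984) against 0 (range 0 to 37), and reached 5 reads in 34 chondrogenic and 2 other cells. *Acan*, the aggrecan gene, reached 5 reads in 16 chondrogenic cells, 5 in NXT0142 and 11 in NXT0143, and in 1 other cell. *Matn1*, which encodes a matrilin of mature cartilage, reached 5 reads in 4 chondrogenic cells, all in NXT0143, and in 0 other cells (interval 0 to 4.25%). Membership thus turned mostly on *Col9a1*.

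**Figure D1:**
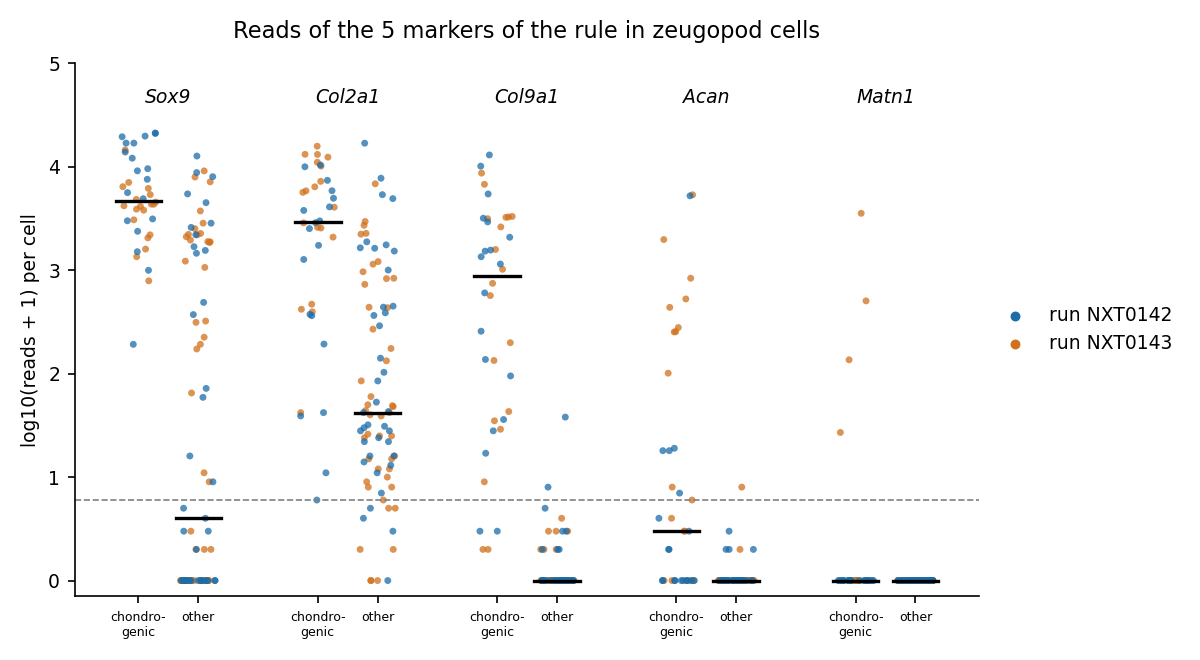
Reads of the 5 rule markers in each zeugopod cell, as log10(reads + 1), in chondrogenic and other cells, coloured by run, with bars at group medians and a dashed line at 5 reads. *Sox9* and *Col2a1* reach high counts in both groups, whereas *Col9a1* stays at or under 37 reads in the other cells.

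At the edge of the rule, 26 of the 38 chondrogenic cells had exactly 3 markers, 22 of them *Sox9*, *Col2a1* and *Col9a1* and 4 *Sox9*, *Col2a1* and *Acan*. A further 8 had 4 markers, and 4 had all 5. Just outside it, 38 of the 85 other cells had 2 markers, which were *Sox9* and *Col2a1* in 35. The remaining other cells had 1 marker, in 42 cells, or none, in 5. The 4 chondrogenic cells without 5 reads of *Col9a1* had 1 to 4 of its reads, as had 13 other cells.

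Reads on genes were alike in the groups, with a median of 3243823.5 in chondrogenic cells (range 186271 to 4871723) and 3137267 in other cells (range 234351 to 6801278). Genes with at least 1 read had a median of 3869.5 and 4051 per cell, and 2941 and 3173 after thinning to 500000 reads on genes, which left out 1 chondrogenic and 3 other cells. The median size factor was 1.12 and 1.13. It was worked back, up to a constant, from the deposited counts and the authors' normalized values, not computed from the spike-in rows. In NXT0142 the chondrogenic cells had fewer genes detected (3857 against 4342, thinned 2951.5 against 3345), and in NXT0143 more before thinning and fewer after it (3882 against 3718, thinned 2871 against 2957.5).

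Levels were compared as the difference of mean log2(normalized value + 1), chondrogenic minus other, on the authors' values scaled by spike-in size factors and by the length of each gene. Of 10948 genes in that table, 4885 reached 5 reads in 25% or more of the chondrogenic or of the other cells and were compared. A gene was called past the fold with a difference of at least 2 in size over all cells and at least 1 in the same direction in each run. In the higher direction 36 genes were past the fold (0.737%) and in the lower direction 60 (1.23%), and without *Sox9*, *Col2a1* and *Col9a1* the higher genes numbered 33. Over all 4885 genes the median difference was -0.21, with -0.47 in NXT0142 and 0.01 in NXT0143. With differences centred on these medians, a choice made after seeing the data, 52 genes were higher and 40 lower. The shares also moved with the pseudocount, to 1.35 and 2.56% with 0.1 and to 0.266 and 0.328% with 10. With the fold applied to NXT0142 alone 47 and 294 genes were past it, or 0.962 and 6.02%, and in NXT0143 alone 2.19 and 1.64%.

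**Figure D2:**
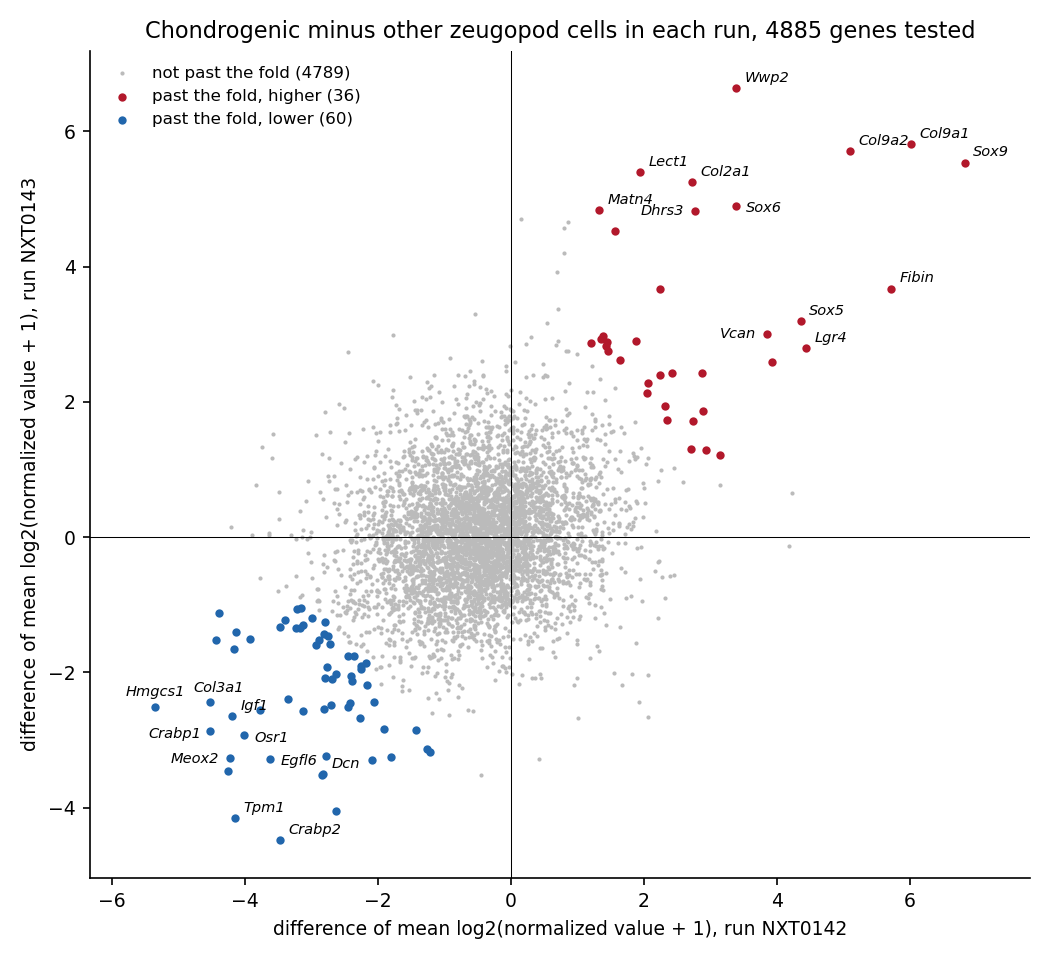
Difference of mean log2(normalized value + 1) between chondrogenic and other zeugopod cells in NXT0142 (horizontal) and NXT0143 (vertical) for 4885 genes, 1 point a gene, with the 36 higher and 60 lower genes past the fold in colour. *Sox9*, *Col9a1*, *Col9a2*, *Wwp2* and *Fibin* lie at the upper right, and *Tpm1*, *Crabp2*, *Hmgcs1* and *Meox2* at the lower left.

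*Sox5* and *Sox6*, the partners of *Sox9*, stood at the head of the regulators that the rule had not used. *Sox6* had a median of 272.5 reads per chondrogenic cell (range 0 to 11159) and 0 in other cells (range 0 to 4840). It reached 5 reads in 31 of 38 chondrogenic cells (81.6%, interval 65.7 to 92.3%) and 10 of 85 other cells (11.8%, interval 5.79 to 20.6%), with 75.7 and 12.2% after thinning. Its difference was 4.13 (3.38 in NXT0142 and 4.90 in NXT0143). *Sox5* had a median of 799 reads (range 0 to 6933) against 0 (range 0 to 3925), and reached 5 reads in 33 chondrogenic cells (86.8%, interval 71.9 to 95.6%) and 16 other cells (18.8%, interval 11.2 to 28.8%), with 81.1 and 17.1% after thinning. Its difference was 3.78 (4.36 and 3.20 by run). For both genes the ranges overlapped, because each group held cells with 0 reads and cells with many. Reads of *Sox5* and of the overlapping *Sox5os1* cannot be told apart, since the kit does not mark strand.

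Both genes were present together in most chondrogenic cells. At least 5 reads of each were found in 29 of 38 chondrogenic cells (76.3%, interval 59.8 to 88.6%) and in 8 of 85 other cells (9.41%, interval 4.15 to 17.7%). By number of rule markers, the pair was present in 0 of 5 cells with none, 1 of 42 with 1, 7 of 38 with 2, 17 of 26 with 3, and all 12 cells with 4 or 5. Of the 38 cells with 2 markers, 16 had at least 1 of the pair. From 1 to 4 markers, the share of cells with the pair was higher in each class with more markers. The 5 cells without a marker were too few to rank (interval 0 to 52.2%). Both genes entered the comparison through the chondrogenic cells only, which favours high shares at 3 or more markers, so these shares are a description.

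RefSeq start windows of *Sox5*, *Sox6* and *Col9a2*, genes that were higher in chondrogenic cells, are shown to place them in the genome. SOX proteins bind short sequences close to ACAAT and ACAAAG, and matches to these letters on either strand are in capitals (ATTGT and CTTTGT are their reverse complements). The windows run from 250 bases before to 50 bases after a RefSeq start in GRCm38.p6, 5′ to 3′ on the strand of the gene. They lie at chr6:143947057-143947356 on the minus strand, chr7:116038695-116038994 on the minus strand and chr4:121039316-121039615 on the plus strand. The *Sox5* window is at a start inside the gene, which is annotated from 143828425 to 144781977, and the *Sox6* window is 1 of 6 in that gene, of which 3 others held ACAAT.
Sox5: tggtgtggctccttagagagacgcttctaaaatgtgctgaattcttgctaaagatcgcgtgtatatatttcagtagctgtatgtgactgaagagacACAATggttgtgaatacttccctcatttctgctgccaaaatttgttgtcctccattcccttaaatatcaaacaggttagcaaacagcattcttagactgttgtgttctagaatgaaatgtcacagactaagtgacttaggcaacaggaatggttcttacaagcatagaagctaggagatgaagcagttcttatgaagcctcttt
Sox6: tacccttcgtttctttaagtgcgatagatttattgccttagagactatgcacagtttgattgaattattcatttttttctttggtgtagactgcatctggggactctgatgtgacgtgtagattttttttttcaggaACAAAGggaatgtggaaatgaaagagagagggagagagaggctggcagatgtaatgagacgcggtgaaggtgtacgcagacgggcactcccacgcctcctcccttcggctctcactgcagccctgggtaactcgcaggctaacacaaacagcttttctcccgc
Col9a2: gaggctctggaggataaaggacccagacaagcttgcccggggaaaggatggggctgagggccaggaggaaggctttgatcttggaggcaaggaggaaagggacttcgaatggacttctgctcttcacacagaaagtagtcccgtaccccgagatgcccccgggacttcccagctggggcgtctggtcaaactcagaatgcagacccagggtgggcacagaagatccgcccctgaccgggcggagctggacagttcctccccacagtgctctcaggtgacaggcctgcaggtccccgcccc

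The *Sox5* window held 1 match to ACAAT, the *Sox6* window 1 match to ACAAAG, and the *Col9a2* window 0 of either. Of all 32851 RefSeq windows of 300 bases, 31% held ACAAT and 18.7% held ACAAAG. Of the 15 genes with the largest higher differences, 12 matched a RefSeq symbol, with 20 windows, of which 6 from 3 genes held ACAAT and 5, all of *Sox6*, held ACAAAG. Of the 15 genes with the largest lower differences, 12 matched with 12 windows, of which 2 held ACAAT and 4 held ACAAAG. These shares are a description of letters in short windows.

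Among the 24 chondrogenic regulators listed, 9 were compared, and 3 were past the fold in the higher direction and 0 in the lower. Over all genes the shares past the fold were 0.737% higher and 1.23% lower. The median difference of the 9 was 1.25 against -0.21 over all genes. The 3 genes and *Mef2c* entered the comparison through the chondrogenic cells only, and with every gene of the normalized table the median of the chondrogenic regulators was 0.02 against -0.10 over all genes. The genes added in that setting reached 5 reads in too few cells of both groups, so its median cannot show whether the list was higher. The differences are therefore given for single genes. The third gene past the fold was *Foxc1*, a forkhead factor active in skeletal mesenchyme, with a difference of 2.23 and 5 or more reads in 22 of 38 against 9 of 85 cells. The shares for *Foxc1* after thinning were 35.1 and 7.32%. *Mef2c*, a factor known for its part in cartilage maturation, reached 5 reads in 14 chondrogenic cells (36.8%) and 1 other cell (1.18%), with a difference of 1.85 that stayed under the fold (0.99 and 2.70 by run). *Trps1*, a zinc finger repressor of growth plate cartilage, was abundant in both groups, in 36 of 38 and 70 of 85 cells. *Hif1a* gave -0.91 and *Arid5b* -0.63, and *Smad3* gave -0.03 with opposite signs in the runs.

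Several genes of the cartilage matrix were higher. Of 30 listed outside the rule, 27 were in the count table and 12 were compared. Of the 12, 7 were past the fold in the higher direction and 1, *Lum*, in the lower, beside 0.737 and 1.23% of all genes. The median difference of the 12 was 2.34 (1.39 in NXT0142 and 3.29 in NXT0143), beside -0.21 over all genes. Most of the 12 were frequent enough for comparison in chondrogenic cells only, which raises this median, and for every gene of the normalized table the median of the cartilage matrix outside the rule was 1.65 against -0.10. *Col9a2* (ENSMUSG00000028626, chromosome 4, 121039385 to 121055322), which encodes another chain of type IX collagen, had the largest difference of any gene outside the rule, 5.38. It had a median of 2362.5 reads in chondrogenic cells (range 0 to 6595) and 0 in other cells (range 0 to 4340), with at least 5 reads in 32 of 38 (84.2%, interval 68.7 to 94%) and 23 of 85 cells (27.1%, interval 18 to 37.8%). Summed over cells, it gave 684 reads per 1000000 reads on genes (CPM) in chondrogenic cells (95% Poisson interval 680 to 689) and 86.7 in other cells (interval 85.6 to 87.8). *Col9a3*, the third chain, gave 2.39 and was found in 18 of 38 and 4 of 85 cells, with 143 and 6.56 CPM.

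*Wwp2*, which encodes a ubiquitin ligase and carries the cartilage microRNA gene *Mir140* within it, followed with a difference of 5.04 (3.38 and 6.64 by run). It had a median of 4093 reads against 0, and 5 or more in 29 of 38 and 27 of 85 cells. *Lect1*, the chondromodulin gene, gave 3.65 and was found in 16 chondrogenic cells, 4 in NXT0142 and 12 in NXT0143, and in 5 other cells. *Matn4*, a matrilin gene, gave 3.07 and was found in 20 and 3 cells, and *Mia*, which encodes a small secreted protein of cartilage, gave 2.98 and was found in 19 and 4. *Col11a1*, a collagen that nucleates cartilage fibrils, was already present in 52 of 85 other cells, and gave 2.10. *Papss2*, an enzyme that supplies sulfate to proteoglycans, gave 2.30 but only 0.69 in NXT0142, and was present in 14 chondrogenic cells and 1 other cell. All of these genes other than *Col9a2* gave clearly larger differences in NXT0143 than in NXT0142, whereas *Col9a2* gave 5.70 and 5.10.

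Other genes of the cartilage matrix list were seen in few cells. *Hapln1*, which encodes the link protein that fastens aggrecan to hyaluronan, had 5 or more reads in 6 of 38 chondrogenic cells (15.8%, interval 6.02 to 31.3%) and 0 of 85 others (interval 0 to 4.25%). *Col11a2* was found in 8 and 3 cells, *Matn3* in 7 and 1, *Cytl1* in 7 and 1 and *Scrg1* in 6 and 1. Of 20 genes listed for hypertrophic cartilage and bone, 18 were in the count table and 0 were present in enough cells to be compared. *Col10a1*, the collagen of hypertrophic cartilage, was found in 6 and 5 cells, with at most 69 reads and 1.36 against 0.293 CPM. *Ihh*, the hedgehog ligand of prehypertrophic cells, was found in 2 chondrogenic cells and 0 others, and *Sp7*, an osteoblast factor, in 1 and 0. *Ibsp*, *Alpl* and *Mmp13*, genes of bone and its remodelling, reached 5 reads in 0 cells of either group. *Runx2*, which acts in both hypertrophic cartilage and bone, was found in 7 chondrogenic and 7 other cells. Genes of hypertrophic cartilage and bone were thus found in at most 7 chondrogenic cells among those named.

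Of 15 joint interzone genes, 5 were compared and 1 was past the fold in each direction, beside 0.737% higher and 1.23% lower of all genes. The median of the joint interzone list was 0.56 against -0.21 over all genes, and 0.50 against -0.10 with every gene of the normalized table, as *Enpp2* and *Gdf5* entered the comparison through the chondrogenic cells only. *Enpp2*, the gene of autotaxin, gave 2.21, and was found in 15 of 38 and 17 of 85 cells. *Gdf5*, the ligand that marks the future joint, was found in 11 chondrogenic cells (28.9%, interval 15.4 to 45.9%) and 7 other cells (8.24%, interval 3.38 to 16.2%), all 7 of which had 2 rule markers, and gave 1.12. *Erg*, a factor of articular cartilage, was found in 9 and 5 cells, and *Nog*, the BMP antagonist of condensations, in 5 and 2. The gene past the fold in the lower direction was *Osr1*.

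The other genes with the largest higher differences belong to several functions. *Fibin*, which encodes a secreted protein, gave 4.64 (5.71 and 3.68 by run), with 5 or more reads in 24 of 38 and 12 of 85 cells. *Dhrs3*, an enzyme that turns retinaldehyde back into retinol, gave 3.85 and was found in 22 and 18 cells. *Lgr4*, a receptor for R-spondins, gave 3.59, with a median of 3141 reads against 72. *Vcan*, the gene of versican, a large proteoglycan of condensing mesenchyme, gave 3.44 and was found in 37 of 38 and 57 of 85 cells, with 3477 and 695 CPM. *Tox*, a nuclear protein with an HMG box, gave 3.25, and *Mgp*, an inhibitor of calcification, 3.05, with 15 of 38 and 9 of 85 cells. *Cthrc1*, a secreted protein, and *P4ha1*, a subunit of the enzyme that hydroxylates proline in collagen, gave 2.75 and 2.70 but were not past the fold, since NXT0142 gave 0.85 and 0.80.

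The cartilage matrix genes of each cell were also counted by its number of rule markers. For 11 compared matrix genes, leaving out *Lum*, a choice made after seeing its direction, the median number with 5 or more reads per cell was 1 in cells without a rule marker, 2 with 1, 2 with 2, 5 with 3, 7 with 4 and 9 with all 5. After thinning the medians were 1.5, 1, 2, 4, 6 and 8.5, so that the other cells showed no steady order by marker number. Most of the 11 genes had entered the comparison through the chondrogenic cells only, and the part of this choice in the higher numbers of cells with 3 or more markers was not tested. Leaving out *Lum* and this entry both favour higher numbers in chondrogenic cells, so the group values are given as a description. Chondrogenic cells had a median of 6 (range 1 to 11) and other cells 2 (range 0 to 6). At least 3 such genes were found in 34 of 38 and 33 of 85 cells, and after thinning in 31 of 37 and 19 of 82. The mean of *Col9a2* on the log2 scale was 1.21 in cells with up to 1 marker, 3.45 with 2, 6.81 with 3 and 9.28 with 4 or 5, and that of *Matn4* was 0.27, 0.80, 2.15 and 6.64. The step for *Vcan* came earlier, at 2.84, 6.13, 7.59 and 8.09, so that cells with 2 markers already had high *Vcan*.

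**Figure D3:**
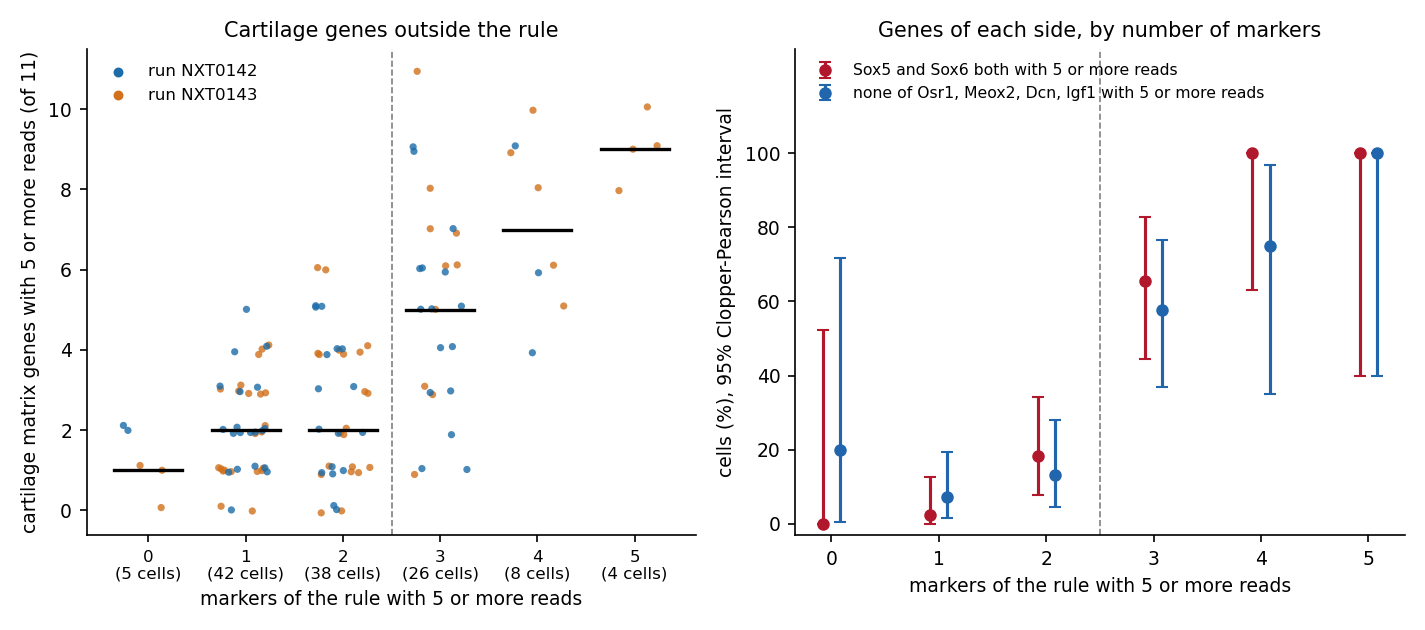
Left, number of 11 cartilage matrix genes with 5 or more reads in each zeugopod cell against its number of rule markers, with bars at medians from 1 in cells without a marker to 9 in cells with 5. Right, percent of cells with both *Sox5* and *Sox6*, and percent with none of *Osr1*, *Meox2*, *Dcn* and *Igf1*, with 95% Clopper-Pearson intervals, and a dashed line at the edge of the rule.

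In the lower direction stood several genes of the connective tissue list, among them *Col3a1*, *Col1a2* and *Dcn*. Of 42 genes listed, 32 were compared, and 5 were past the fold in the lower direction (*Col3a1*, *Dcn*, *Col1a2*, *Fbln1* and *Crabp1*). In the higher direction 1 was, *Vcan*, beside 1.23% lower and 0.737% higher of all genes. The median was -0.83 (-1.04 and -0.40 by run). *Crabp1* was on this list and is part of its count and median, but it encodes a retinoic acid binding protein of the cytoplasm, not a matrix protein. Several of them, such as *Dcn*, *Crabp1* and *Ogn*, entered the comparison through the other cells only, and with every gene of the normalized table the median of the connective tissue matrix was -0.65 against -0.10 over all genes. *Col3a1*, the gene of type III collagen, had a median of 29.5 reads in chondrogenic cells (range 0 to 7580) and 2384 in other cells (range 0 to 38352), a difference of -3.47, although 30 of 38 and 72 of 85 cells had at least 5 reads. Its thinned shares were 48.6 and 82.9%. *Dcn*, the decorin gene, was found in 2 of 38 chondrogenic cells (5.26%, interval 0.644 to 17.7%) and 34 of 85 others (40%, interval 29.5 to 51.2%), a difference of -3.21. *Col1a2* gave -2.45 with reads in nearly all cells, at 422 and 1087 CPM, and *Col1a1*, the other chain of type I collagen, gave -1.31 with 386 and 989. *Fbln1* gave -2.34, *Lum*, a small proteoglycan listed with the cartilage matrix, -2.46, and *Ogn*, the osteoglycin gene, lay just under the fold with -1.96 and -1.92 by run. Of the 32 compared genes of the connective tissue list, 12 had a difference above 0 and 20 below it. The 12 included *Vcan* at 3.44, and *Sparc*, *Bgn* and *Mfap2* at 0.04, 0.10 and 0.43, so the lower values did not extend to every matrix gene.

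Genes of the cytoskeleton and cell shape were among the largest lower differences. *Tpm1*, which encodes tropomyosin, an actin filament protein, led the list with -4.13 (-4.15 and -4.16 by run). It had a median of 5 reads in chondrogenic cells (range 0 to 1452) and 1504 in other cells (range 0 to 21320), with 5 or more in 19 of 38 and 71 of 85 cells. *Rnd3*, whose product loosens actin fibres, gave -3.83, *Map1b*, a microtubule protein, -3.15, and *Vim*, the vimentin gene, -2.99. The groups overlapped, as 14 other cells also had fewer than 5 reads of *Tpm1*.

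The genes of the retinoic acid binding proteins were lower. *Crabp2*, which delivers retinoic acid to its receptors, gave -3.91 (-3.47 and -4.48 by run), with 5 or more reads in 18 of 38 and 71 of 85 cells. *Crabp1*, a retinoic acid binding protein of the cytoplasm, gave -3.65, with 9 of 38 (23.7%, interval 11.4 to 40.2%) and 54 of 85 cells (63.5%, interval 52.4 to 73.7%). Other genes of the pathway went the other way, *Rarg*, a receptor, at 1.26 and *Cyp26b1*, which breaks down retinoic acid, at 0.28, and *Dhrs3* was higher.

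Transcription factors of limb mesenchyme and of its fibroblasts differed gene by gene. *Osr1*, a marker of fibroblast precursors in limb muscle connective tissue, was found in 3 of 38 chondrogenic cells (7.89%, interval 1.66 to 21.4%) and 44 of 85 others (51.8%, interval 40.7 to 62.7%), with a difference of -3.48. *Meox2*, a homeobox gene of limb mesenchyme and muscle precursors, was found in 8 of 38 (21.1%, interval 9.55 to 37.3%) and 59 of 85 cells (69.4%, interval 58.5 to 79%), with 10.8 and 54.9% after thinning, and gave -3.76. *Shox2*, needed for the proximal limb skeleton, gave -1.97 and was still found in 17 of 38 and 56 of 85 cells. *Tcf7l2*, *Tbx15* and *Prrx1* gave 0.49, 0.42 and 0.50, and *Tbx5* -0.56. Of 10 compared genes of muscle connective tissue and limb fibroblasts, 4 were lower past the fold, beside 1.23% of all genes, namely *Crabp2*, *Zfhx3* (-2.66), *Zfhx4* (-2.09) and *Pdgfra* (-2.02). The median of the muscle connective and limb fibroblast list was -1.02, and -0.56 with every gene of the normalized table. Of 8 compared limb mesenchyme regulators only *Meox2* was past the fold, and the median of the limb mesenchyme regulators was -0.47, or 0.03 with every gene of the normalized table. *Twist1*, a basic helix-loop-helix factor, was found in 2 and 19 cells, under the minimum for comparison.

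For *Osr1*, *Meox2*, *Dcn* and *Igf1*, a set picked after their values were seen, 25 of 38 chondrogenic cells had 5 reads of none of them (65.8%, interval 48.6 to 80.4%), against 9 of 85 other cells (10.6%, interval 4.96 to 19.2%). By number of rule markers, none of the 4 was present in 1 of 5, 3 of 42, 5 of 38, 15 of 26, 6 of 8 and 4 of 4 cells. At least 2 of the 4 were present in 33 of 42 cells with 1 marker, 15 of 38 with 2 and 3 of 26 with 3. Since the 4 genes were picked for low values in cells with 3 or more markers, the step from 2 to 3 markers follows from the choice. No chondrogenic cell had 3 or more of the 4, and 37 other cells had.

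In the growth factor system of insulin-like growth factors, 2 of 9 compared genes were lower past the fold, beside 1.23% of all genes, and the median of -0.26 was close to the -0.21 over all genes. *Igf1*, *Igfbp2* and *Igfbp3* entered the comparison through the other cells only. *Igf1* was found in 3 of 38 and 43 of 85 cells, with 141 and 1121 CPM and a difference of -3.37. The binding protein gene *Igfbp4* gave -2.13. *Igfbp3*, another binding protein, was found in 0 of 38 chondrogenic cells (interval 0 to 9.25%) and 32 of 85 others (37.6%, interval 27.4 to 48.8%), and gave -1.90. The receptor *Igf1r* gave 0.73 and the abundant ligand *Igf2* -0.26. The binding protein genes *Igfbp2* and *Igfbp5* gave -0.89 and -0.22 and were not past the fold.

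Further lower genes were *Egfl6*, a secreted protein with EGF repeats, found in 2 of 38 and 42 of 85 cells (-3.45), and 2 enzymes of cholesterol synthesis, *Hmgcs1* (-3.86) and *Cyp51* (-2.25), the latter chosen for mention after its value was seen. *Hmgcs1* was found in 9 and 58 cells, with 246 and 618 CPM. *6330403K07Rik* gave -3.33 and *Kctd12*, a potassium channel domain protein, -3.14.

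Signalling pathways are given with their genes past the fold, beside 0.737% higher and 1.23% lower over all genes. In the BMP and GDF pathway 0 of 15 compared genes were past it, with a median of 0.06. The antagonist *Chrdl1* gave 1.99, the receptors *Bmpr2* and *Bmpr1a* 0.82 and 0.76, the ligand *Bmp4* -1.30, and the response gene *Id1* -0.65 with -1.92 in NXT0142 and 0.51 in NXT0143. In the TGF-beta and activin list 0 of 11 were past the fold, with a median of -0.16, and the receptor gene *Tgfbr3* gave -1.59. In the FGF pathway 1 of 6 was, the feedback inhibitor *Spry4* at -2.17, while the receptors *Fgfr1*, *Fgfr2* and *Fgfr3* gave 1.70, 1.21 and 0.50. The median of the FGF pathway was 0.36, with opposite signs in the runs (-0.77 in NXT0142 and 1.19 in NXT0143). In the hedgehog and PTHrP list 0 of 7 were, with a median of 0.67, 1.15 for the effector *Gli3* and 0.68 for the receptor *Ptch1*. In the Wnt pathway, of 16 compared genes *Lgr4* was higher and *Dkk2*, a secreted modulator, lower at -2.85, with *Dkk2* in 1 of 38 and 32 of 85 cells. *Frzb*, a Wnt antagonist of cartilage, gave 1.67, the ligand *Wnt5a* -0.29, and the median was 0.03. *Wnt11*, a ligand of outer limb mesenchyme, was found in 1 and 18 cells. In the Notch pathway 0 of 7 were past the fold, with a median of -0.11.

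**Figure D4:**
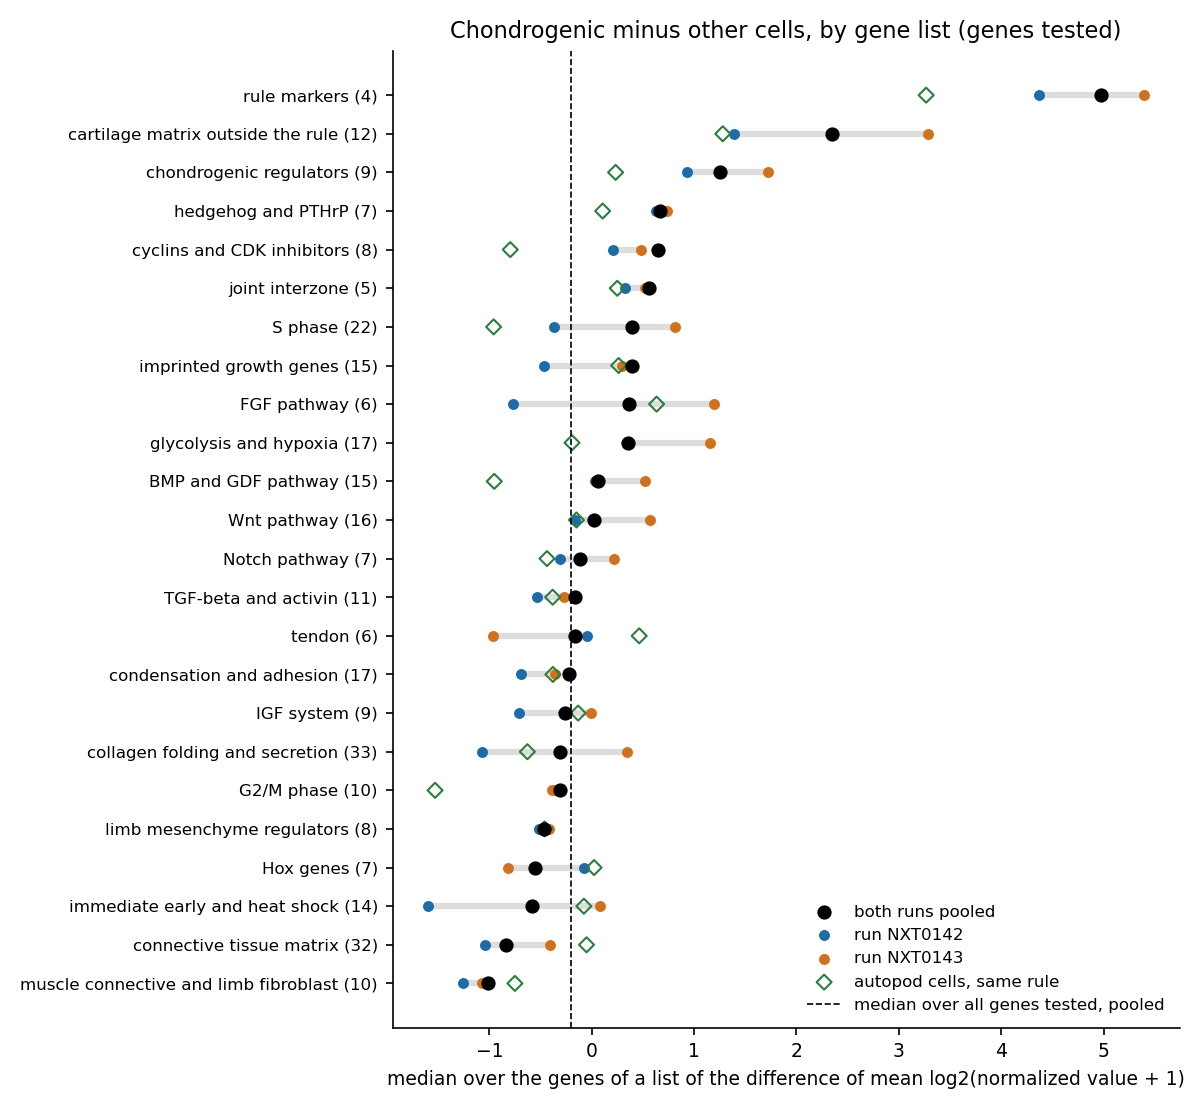
Median difference of mean log2(normalized value + 1), chondrogenic minus other, for gene lists, over all zeugopod cells, by run and in the autopod, with the number of genes compared in parentheses and a dashed line at -0.21, the median over all 4885 genes. Cartilage matrix genes lie highest among lists outside the rule at 2.34, though most of them entered the comparison through the chondrogenic cells only. The retinoid pathway, the list with the most negative median, is not drawn.

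Of 7 compared *Hox* genes 0 were past the fold, a number too small to set beside 0.737 and 1.23% of all genes. Their median was -0.55 (-0.07 in NXT0142 and -0.82 in NXT0143) against -0.21 over all genes. *Hoxd11*, the gene of the reporter allele, gave 0.14 and was found in 29 of 38 and 69 of 85 cells, and *Hoxd10* gave 0.26. *Hoxa11* gave -0.66, and *Hoxd8* -0.95, most of it in NXT0143. *Hoxd13*, a gene of the hand, was found in 1 chondrogenic cell and 0 other cells.

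Genes of cell division are given beside the shares past the fold over all genes, 0.737% higher and 1.23% lower, at which lists of this size may hold none. Of 22 compared S phase genes 0 were past the fold, with a median of 0.40 that was -0.37 in NXT0142 and 0.82 in NXT0143. *Mcm6*, a subunit of the replicative helicase, gave 1.5 (-0.01 and 2.83 by run). Of 10 compared G2/M genes 0 were past the fold, with a median of -0.31, and *Mki67*, the proliferation antigen, was found in 8 of 38 and 22 of 85 cells. Among 8 cyclins and CDK inhibitors the median was 0.65, with *Cdk6* at 1.72 and the inhibitor *Cdkn1c* at 0.71. Over all genes the medians were -0.47 in NXT0142 and 0.01 in NXT0143, so that the S phase medians lay above them in both runs.

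Lists on metabolism and protein folding are given by run, beside all-gene medians of -0.47 in NXT0142 and 0.01 in NXT0143. Shares past the fold over all genes were 0.737% higher and 1.23% lower. Of 17 compared glycolysis and hypoxia genes 1, *Ldha*, a lactate dehydrogenase gene, was past the fold at 2.11, with a median of 0.36 (0.35 and 1.15 by run). The glucose transporter *Slc2a1* gave 1.29. Of 33 compared collagen folding and secretion genes 0 were past the fold, with a median of -0.31 that was -1.07 in NXT0142 and 0.35 in NXT0143, and the chaperone *Hspa5* gave -3.04 and 0.83. Of 14 immediate early and heat shock genes *Dnajb1*, a chaperone, was lower past the fold at -2.08, and the list median of -0.58 was -1.60 and 0.08 by run. *Egr1*, an early response gene, gave -2.45 and 2.74. For the imprinted growth genes 0 of 15 were past the fold, the median was 0.39 (-0.47 and 0.30 by run), *Grb10*, an inhibitor of insulin signalling, gave 1.91 and *Nnat* -1.98. Among 17 condensation and adhesion genes *Vcan* was higher and the ephrin *Efna5* lower (-2.22), with a median of -0.22, and *Cdh2*, the N-cadherin gene of early condensations, gave -0.90.

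Markers of other cell types were counted in both groups. By their listed markers, 0 chondrogenic (interval 0 to 9.25%) and 0 other cells (interval 0 to 4.25%) were muscle, epithelium, endothelium, macrophage or nerve and Schwann cells. Blood cells could not be called, since 3 markers were required and only *Hba-x* was matched. *Myod1*, *Myog*, *Krt5* and *Cdh5* had 0 reads in both groups. *Epcam*, an epithelial adhesion gene, was found in 1 and 8 cells, with 27 and 17794 reads, and *Sox10*, a neural crest factor, in 5 and 0 cells, with 65 and 11 reads. Tendon markers were present, with at least 2 of *Scx*, *Tnmd* and *Tnc* in 3 of 38 chondrogenic cells (7.89%, interval 1.66 to 21.4%) and 14 of 85 others (16.5%, interval 9.31 to 26.1%). *Scx*, the tendon factor, was found in 9 and 26 cells, 15 of the latter with 2 rule markers, and *Tnmd*, a gene of mature tendon, in 0 and 2. Summed, the tendon markers gave 136 and 247 CPM, most of them *Tnc*, and of 6 compared tendon genes 0 were past the fold, with a median of -0.16. The part of tendon-marker cells in the lower values of connective tissue genes was not tested.

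The autopod cells share no cell with the zeugopod, but 17 of them came from run NXT0143, which also held zeugopod cells. The labels name no embryo, so embryos may be shared too. By the same rule the autopod gave 35 chondrogenic and 41 other cells. Their size factors differed more than in the zeugopod, with a median of 1.20 in chondrogenic and 0.611 in other cells. Reads on genes had medians of 2975343 and 2548468, and genes detected 3390 and 3890 (thinned 2496 and 3130.5). The part of these in the autopod differences was not tested. Of the 33 higher genes outside the rule, 26 had a positive difference there, 14 of at least 1 and 6 of at least 2, with a median of 0.84. Over all 4885 genes 22.1% were positive, 2.48% were at least 1 and 19 genes were at least 2, and the median was -0.53. *Wwp2* gave 3.92, *Vcan* 3.57, *Col9a3* 2.90, *Col9a2* 2.66, *Itm2a* 2.37, *Lgr4* 2.09 and *Sox6* 1.95, *Itm2a* being named after its value was seen. *Sox5* gave 0.84, as it was found in 23 of 35 chondrogenic and also 18 of 41 other autopod cells. *Mgp*, high in the zeugopod, gave -0.18. Of the 60 lower genes 48 had a negative difference in the autopod and 27 of at least 1 in size, with a median of -0.88, beside 77.8% and 26% of all genes. *Map1b* gave -2.45 and *Crabp2* -1.88, while *Tpm1* gave -0.18, *Col3a1* 0.21 and *Dcn* 0.09. *Igf1* and *Egfl6* were found in at most 1 autopod cell of either group. Of the 33 higher genes 0 had an autopod difference of -1 or lower, beside 26% of all genes. Of the 60 lower genes 0 had one of 1 or more, beside 2.48% of all genes, a share at which 60 genes may hold none.

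**Figure D5:**
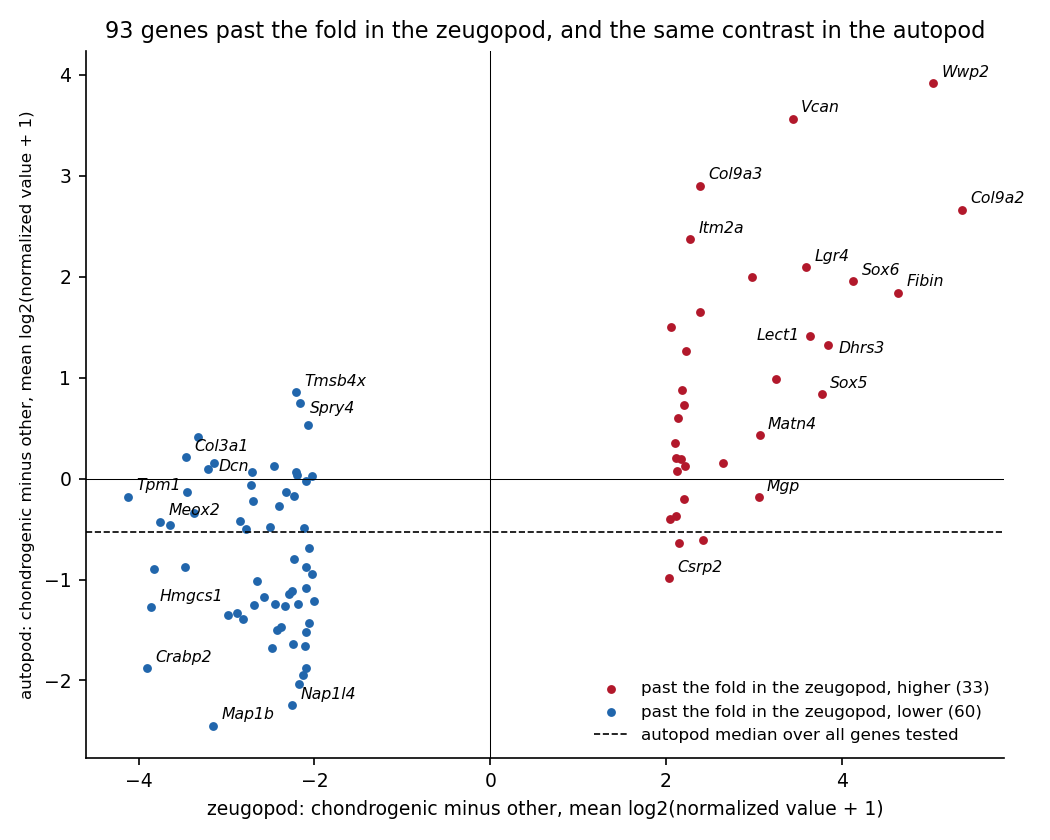
Difference of mean log2(normalized value + 1), chondrogenic minus other, in the zeugopod (horizontal) and in the autopod (vertical) for the 93 genes past the fold in the zeugopod outside the rule markers, with a dashed line at the autopod median of -0.53 over all genes. Of the 33 higher genes 26 lie above 0 in the autopod, and of the 60 lower genes 48 lie below 0, where 22.1% and 77.8% of all genes do.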

How the data were processed

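The authors mapped the reads to the mouse genome (mm10, GRCm38) with Bowtie2 in local mode, version not stated, and deposited read counts per gene for 225 cells. For 199 retained cells they also deposited a normalized signal. By their account it was made from counts with scran size factors from spike-ins, centred within batch, and with a correction for gene length. In cells with 0 reads this signal was still above 0 for some genes and differed by gene. There log2(value + 1) was 0.31 for *Sox9* and 0.81 for *Crabp2*, so the pseudocount was added on top of such a floor. Here the deposited counts served for cell shares, CPM and the rule, and the deposited normalized values for differences of mean log2(value + 1). The 92 rows of spike-ins were not used here, because their columns do not follow the cell names.

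Genes were compared when 25% or more of the chondrogenic or of the other cells reached 5 reads, and the fold was 2 on the log2 scale with 1 in each run. Cells were thinned to 500000 reads with seed 42. Promoter windows came from RefSeq GRCm38.p6. Python 3.11.15 was used with numpy 2.4.6, pandas 2.3.3 and scipy 1.17.1, and the code was tested on simulated data.

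Genes named are the 5 rule markers, in each direction the 15 genes outside them that differed most, with the same direction in both runs and in log2(CPM + 1), and genes of 32 lists, of which up to 4 per list with the largest difference plus known regulators and ligands are given with values. Members and lists were chosen with earlier results of these data known. Reads of genes that overlap cannot be told apart, as for *Wwp2* and *Mir140*, *Matn4* and *Rbpjl*, *Col9a3* and *Tcfl5*, and *Col3a1* and *Gm47302*. Some genes of the lists, and what depends on them, are not reported here.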

Additional observations from a re-analysis of the deposited data

Results flagged for a closer look

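For 7 genes past the fold in the zeugopod, the autopod gave the opposite sign in both of its runs, and this opposite sign is what marked them for a closer look. *6330403K07Rik* gave 0.41 in the autopod and -3.33 in the zeugopod. *Csrp2*, a LIM domain protein, gave -0.99 and 2.04, and *Ivns1abp* gave -0.21 and 2.20, although its autopod difference in log2 CPM was 0.39. *Kctd12* gave 0.16 and -3.14. *Snai2*, a zinc finger repressor, gave -0.63 and 2.15. *Spry4*, the FGF inhibitor, gave 0.75 and -2.17, and *Tmsb4x*, an actin binding peptide, gave 0.86 and -2.21. The difference between the tissues was not tested, and all autopod values were under 1 in size. Of all genes 77.8% were negative in the autopod, with a median of -0.53, so negative values there, as for *Csrp2*, *Ivns1abp* and *Snai2*, are the usual case.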

How the results depend on the processing

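No paired analysis was possible because the numbers in the column names only name cells. The number of chondrogenic cells moved from 38 to 24 with 50 reads per marker, to 76 with 2 of 5 markers and to 12 with 4 of 5. As a percent of the genes compared, genes higher past the fold moved from 0.737 to 0.404 with 2 of 5 markers, 1.51 with 4 of 5, 1.35 with a pseudocount of 0.1, 0.266 with 10, 1.21 in log2 CPM, 1.25 in thinned log2 CPM, 2.19 in NXT0143 alone and 4.34 at a fold of 1. Genes lower moved from 1.23 to 2.42 with 4 of 5 markers, 2.56 with a pseudocount of 0.1, 0.328 with 10, 6.02 in NXT0142 alone and 11.6 at a fold of 1. Centring on the median over all genes, an alternative chosen after seeing the data, gave 1.06 higher and 0.819 lower. The median of the retinoid pathway was the most negative of the list medians. In that list 3 of 5 compared genes were lower past the fold and 0 higher, beside 1.23 and 0.737% of all genes. *Dhrs3*, the retinaldehyde enzyme that was higher at 3.85, was not on the list, so the count and the median leave it out. With 4 of 5 markers the median of the retinoid pathway turned positive, to 0.42, and the cause was not tested. Direction was kept in all 540 alternative values of the 30 genes with the largest differences, 21 of them under 2 in size, but these genes had been chosen for the same direction in both runs and in log2 CPM, so those alternatives could not turn them. With every gene of the normalized table, the median of the chondrogenic regulators moved from 1.25 to 0.02. No cell was left out for markers of other types. All cells come from pools without embryo labels, so variation between embryos was not analysed here.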
